A study of Mus musculus with 6 samples.

Results

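Heat shock proteins, J-proteins and subunits of the cytosolic chaperonin were followed in a macrophage line exposed to bacterial lipopolysaccharide. The members were all features of the array whose annotated symbol began with Hsp and a letter from a to h or a digit, with Dnaja, Dnajb or Dnajc and a digit, or with Cct and a digit from 2 to 8. Hspa5, Hsp90b1 and Dnajb9 were left out. This gave 72 of 16281 features, for 59 of the 10698 genes with a single symbol: 21 heat shock protein (HSP) genes, 29 J-protein genes, 8 genes of the chaperonin CCT, and Hspg2. Hspg2 encodes the proteoglycan perlecan and shares only its first letters with the heat shock proteins, so it was kept out of the HSP group. RAW 264.7 cells, a mouse macrophage line, were left untreated or received lipopolysaccharide (LPS, 100 ng/ml) together with its binding protein (100 pM), and RNA was taken at 8 h. The labels mostly give the line this name and in places write 264.4. Each of 6 two-colour arrays, in 3 numbered sets, compared RNA of both conditions. In each set the treated RNA carried the dye Cy5 on 1 array and Cy3 on the other, the swapped orientation. The values were log2 ratios of the channels, which give no level of a transcript, so the macrophage identity of the cells could not be checked against marker genes.

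Hsp70 proteins hold unfolded protein segments in a cycle of ATP binding and hydrolysis. J-proteins deliver clients to Hsp70 and trigger its ATPase, and exchange factors such as the Hsp110 proteins reset it. Hsp90 matures kinases, receptors and other signalling proteins together with its own cochaperones, small heat shock proteins bind aggregating proteins without ATP, and CCT is a double ring that folds actin and tubulin. Heat shock factor 1 (HSF1) induces many of these genes through heat shock elements when unfolded protein accumulates in the cytosol, while the endoplasmic reticulum (ER) has a separate unfolded protein response.

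The chaperone genes shifted little at 8 h. The gene with the largest change, and the only one of the 57 tested with a log2 ratio beyond 0.5 in size, was Dnajb4, a J-protein of the cytosol, which rose 1.83-fold. Such a size was reached by 10.6% of all 10088 genes tested. In total 9 of the 57 rose and 5 fell when set means were tested against 0 with limma (Benjamini-Hochberg over all genes, threshold 0.05). By the same test 17.3% of all genes rose and 16.8% fell, and 34.2% did either. Among the HSP genes 2 of 20 rose and 1 fell, among the J-proteins 6 of 29 rose and 4 fell, and among the CCT genes 1 of 8 rose and 0 fell. The share called in either direction was 34.5% for J-proteins, 15.0% for HSP genes and 12.5% for CCT genes. Without set 3 the test called 1 HSP gene and 3 J-proteins higher and 0 members lower, with 1086 of all genes higher and 925 lower. The J-protein share was then 11.5%, against 21.0% of all genes. Without set 1 the test called 3 HSP genes higher and 3 lower, or 30.0% of the 20, against 34.1% of all genes. The sign of every ratio assumes Cy5 as numerator, a likely reading drawn from the labels, which name Cy3 as control and Cy5 as test. With the numerator reversed, each rise here would be a fall. In total RNA of a culture, fewer cells with a transcript and less of it per cell cannot be told apart. The labels do not say whether sets came from separate cultures. The p-values therefore reflect only how far these sets spread, which may be technical.

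**Figure D1:**
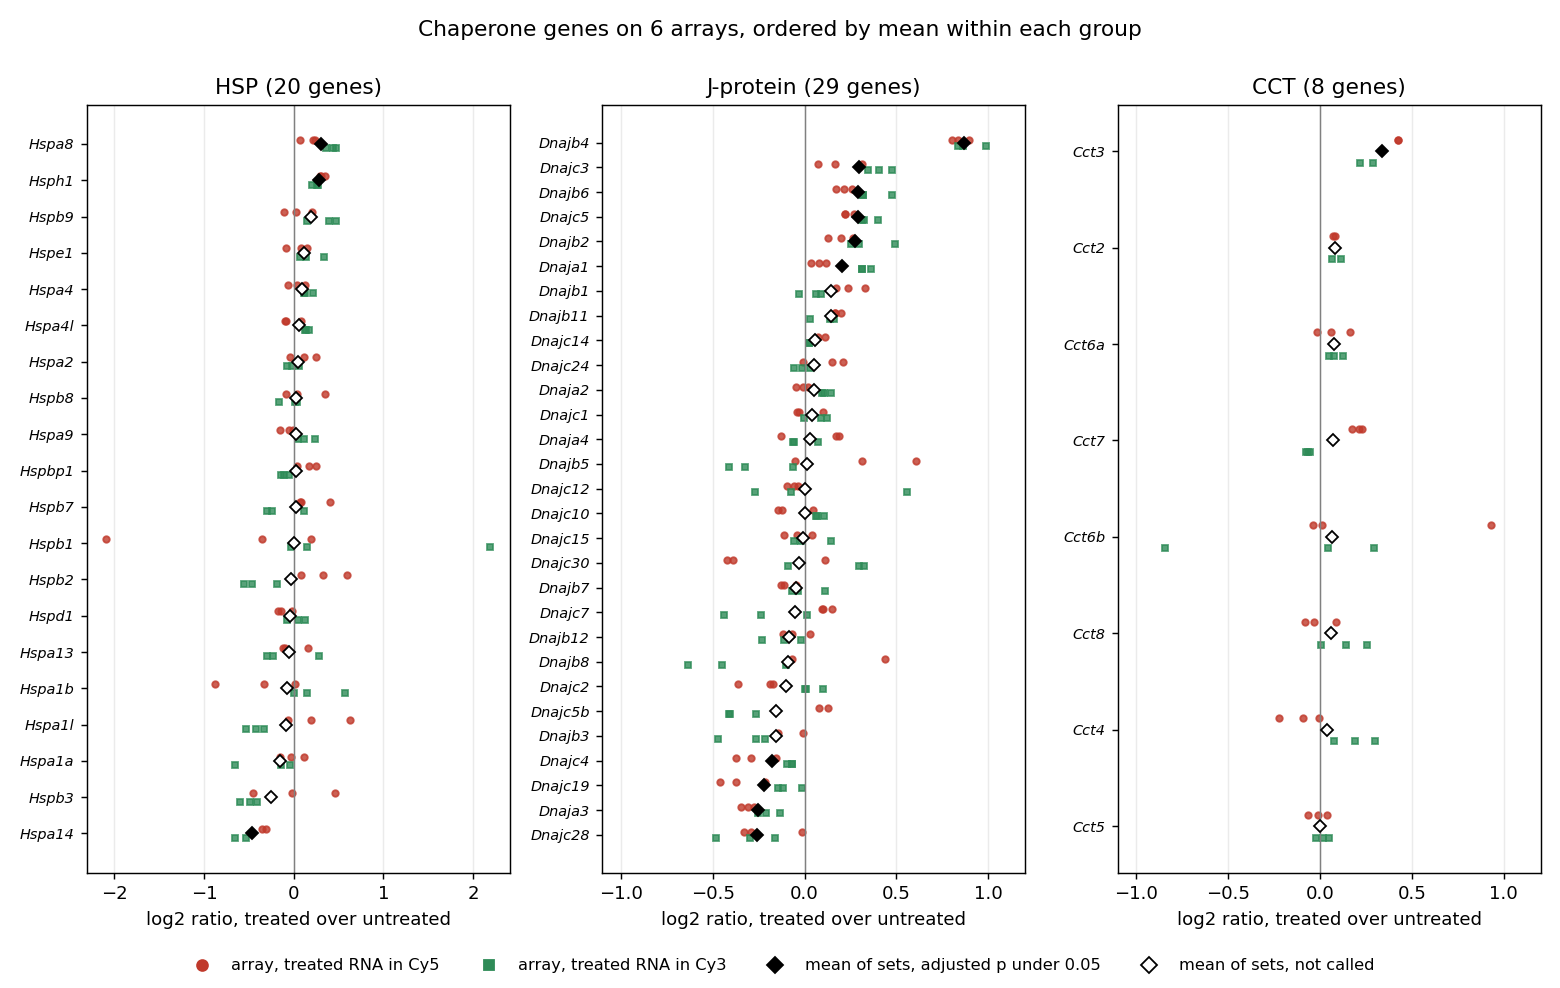
Log2 ratio of treated over untreated RNA (x axis, with a wider scale for the HSP panel) for each tested HSP, J-protein and CCT gene (y axis, ordered by mean). Circles are arrays with treated RNA in Cy5, squares those with treated RNA in Cy3, and diamonds the mean of the measured sets, filled where the adjusted p was under 0.05. Dnajb4 stands apart at 0.87, and Hspb1 has arrays at -2.09 and 2.20 around a mean of 0.01.

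Among the cytosolic Hsp70 machinery, Hspa8 and Hsph1 rose. Hspa8 encodes Hsc70, the constitutive Hsp70 of the cytosol, and had log2 ratios of 0.24, 0.08 and 0.22 with treated RNA in Cy5 and 0.36, 0.47 and 0.44 in the swapped orientation. All 6 arrays were above 0, and the swapped ones lay higher. Its mean was 0.30 ± 0.03 (SD, n = 3 sets), or 1.23-fold, with an adjusted p of 0.00347 in limma. With treated RNA in Cy5 alone the mean was 0.18 (limma's adjusted p = 0.0828). Hsph1, the Hsp110 that serves as nucleotide exchange factor for Hsp70, had values of 0.31, 0.30 and 0.34 in Cy5 and 0.20, 0.26 and 0.27 in Cy3. The arrays of both orientations lay close together, and the mean was 0.28 ± 0.03, or 1.21-fold (limma's adjusted p = 0.00442, and 0.0507 without set 3). Hspa4, a further Hsp110, averaged 0.09 ± 0.02 (adjusted p = 0.163) and Hspa4l 0.06 ± 0.06 (adjusted p = 0.426).

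The HSP gene that fell was Hspa14, which encodes the Hsp70 of the ribosome-associated complex. It was listed at exactly 0 on both arrays of set 1, which was read as not measured. The other 4 arrays gave -0.36 and -0.31 in Cy5 and -0.65 and -0.54 in Cy3, all below 0. Its mean was -0.46 ± 0.06 (SD, n = 2 sets), or 1.38-fold lower (limma's adjusted p = 0.00429). Without set 2 or set 3 it had a single set and no test. With the zeros kept as values the mean was -0.31 (adjusted p = 0.0815). Its partner in that complex, the J-protein gene Dnajc2, had 4 probes with means from -0.11 to -0.09 and a gene mean of -0.10 ± 0.07 (adjusted p = 0.168).

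The stress-inducible Hsp70 genes Hspa1a and Hspa1b were not called. Both are near-identical copies in one cluster, so signal on their probes may be shared, which was not tested. Their promoter windows, alike at 296 of 300 positions, do not show what the probes match. Hspa1a had values of 0.12, -0.03 and -0.16 in Cy5 and -0.04, -0.65 and -0.14 in Cy3, with 5 of 6 arrays below 0. Its mean was -0.15 ± 0.19 (limma's 95% interval -0.34 to 0.04, adjusted p = 0.194), and -0.24 without set 1 (adjusted p = 0.0408). The 2 probes of Hspa1b disagreed. Probe 14566 gave -0.22, -0.43 and -0.40 in Cy5 and -0.51, -0.09 and -0.29 in Cy3, below 0 on all 6 arrays, with a mean of -0.32 ± 0.06 (adjusted p = 0.00408 over all probes in limma). Probe 15862 gave -1.53, -0.25 and 0.44 in Cy5 and 1.65, 0.39 and 0.30 in Cy3, with a mean of 0.17 ± 0.18 (adjusted p = 0.15). The gene mean over both was -0.08 ± 0.08 (limma's adjusted p = 0.301), and the files do not say which transcript parts the probes match. The neighbouring gene Hspa1l averaged -0.09 ± 0.20.

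Hspb1 encodes the small heat shock protein Hsp27 of the mouse, and its arrays spread more widely than those of any other tested member. It had values of -2.09, -0.35 and 0.19 with treated RNA in Cy5 and 2.20, 0.14 and -0.04 in the swapped orientation. As deposited, both set 1 arrays had the lower signal in Cy5, whichever RNA it carried. The mean of both set 1 arrays as deposited was -2.14, which ranked 68 by size among 13734 probes. Probe 15862 of Hspa1b had -1.59 in the same set and ranked 92, against a median size of 0.10 over all probes. In sets 2 and 3 the means as deposited of Hspb1 were -0.25 and 0.11, and those of that Hspa1b probe -0.32 and 0.07. A shift of this kind cancels in the set mean, so Hspb1 had a mean of 0.01 ± 0.10 (limma's 95% interval -0.13 to 0.14, adjusted p = 0.919). The cause of the shift in set 1 was not tested.

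**Figure D2:**
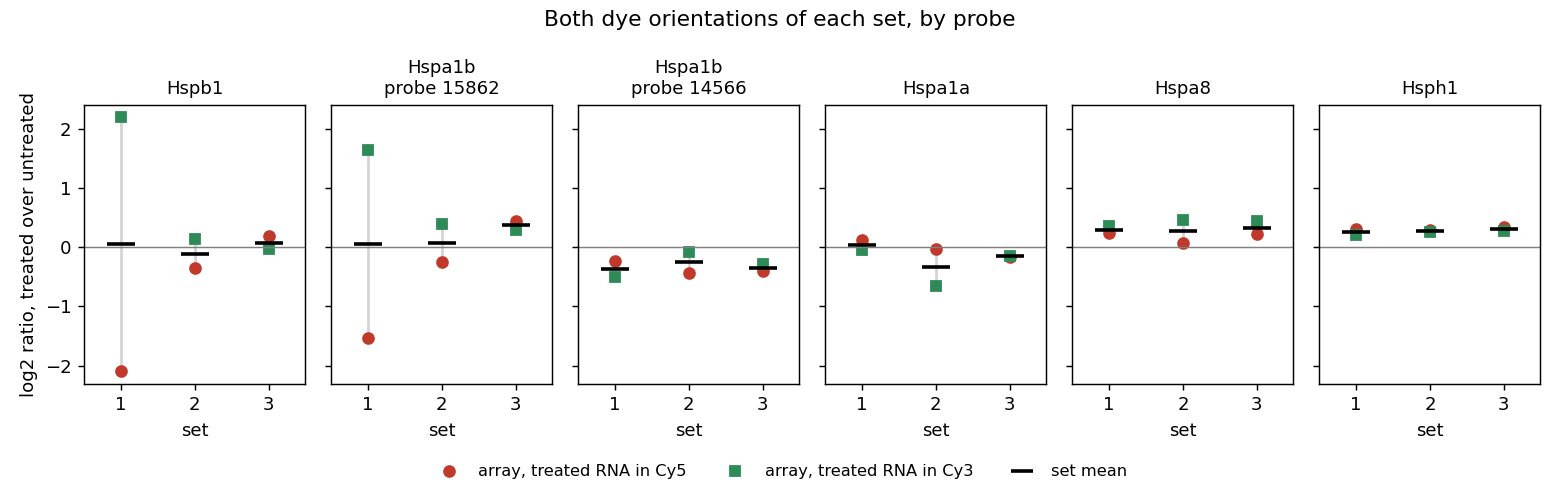
Log2 ratio of treated over untreated RNA (y axis) in each set (x axis) for 6 probes. Circles are arrays with treated RNA in Cy5, squares those with treated RNA in Cy3, joined by a grey line, and black bars are set means. In set 1 Hspb1 stands at -2.09 and 2.20 and probe 15862 of Hspa1b at -1.53 and 1.65, while Hspa8 and Hsph1 are above 0 in every set and orientation.

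The other small heat shock protein genes (Hspb2, Hspb3, Hspb7, Hspb8 and Hspb9) had means from -0.25 to 0.19, and none of the 6 passed in the reported fit. Hspb9 had the highest, at 0.19 ± 0.16, and Hspb3 the lowest, at -0.25 ± 0.25, with limma's adjusted p at 0.083 and 0.0979. Without set 1 Hspb9 was called higher and Hspb3 lower. Hspb9 was also called higher with the arrays as separate replicates and a dye term. With treated RNA in Cy3 alone Hspb2 and Hspb3 were called lower. The median SD of the small HSP genes over sets was 0.14, against 0.08 for all genes. Hspd1 and Hspe1 encode Hsp60 and Hsp10, which together form the folding chamber of the mitochondrial matrix. Hspd1 averaged -0.04 ± 0.08 and Hspe1 0.11 ± 0.13 (limma's adjusted p = 0.617 and 0.208). Hspa9, the mitochondrial Hsp70, averaged 0.03 ± 0.08 (adjusted p = 0.695). Its arrays were below 0 with treated RNA in Cy5 and above 0 in the swapped orientation. Hspbp1, an exchange factor for Hsp70, averaged 0.03 ± 0.05, Hspa2 0.05 ± 0.09 and Hspa13, an Hsp70 relative of microsomes, -0.05 ± 0.12.

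Hsp90 could hardly be read. Hsp90aa1, the inducible cytosolic Hsp90, had 2 probes with 4 and 5 of their 6 values at exactly 0. The first gave 0.16 in Cy5 and 0.10 in Cy3 in set 2, and the second 0.27 on the set 2 array with treated RNA in Cy3. With a single measured set the gene was not tested. Hsp90ab1 was not analysed here. Hspg2 had a single value other than 0, -0.41, and was not tested either.

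Among the class B J-proteins, which share the domain layout of Dnajb1, 3 of 10 rose and 0 fell, against 17.3% and 16.8% of all genes. Dnajb4 had gene values of 0.80, 0.83 and 0.90 in Cy5 and 0.84, 0.99 and 0.86 in Cy3. Every array lay far from 0 and the orientations overlapped. Its mean was 0.87 ± 0.05 (limma's adjusted p = 6.94e-05), and its 2 probes had means of 0.84 and 0.90. Dnajb6, which suppresses aggregation of polyglutamine proteins, had a mean of 0.29 ± 0.07, or 1.22-fold (limma's adjusted p = 0.0056). Its 2 probes differed: probe 15135 averaged 0.52 ± 0.12 with values from 0.36 to 0.82, whereas probe 14567 averaged 0.07 ± 0.03 with values from -0.02 to 0.19 (adjusted p = 0.0014 and 0.349 over all probes in limma). The rise of Dnajb6 was thus seen on 1 of its 2 probes. Dnajb2, which binds ubiquitylated clients, had values of 0.26, 0.13 and 0.20 in Cy5 and 0.49, 0.30 and 0.25 in Cy3, and a mean of 0.27 ± 0.09 (limma's adjusted p = 0.0104, 0.0518 without set 3 and 0.0546 with treated RNA in Cy5 alone).

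Dnajb1 is the J-protein most strongly tied to heat shock and did not pass. It had values of 0.17, 0.24 and 0.33 in Cy5 and -0.03, 0.06 and 0.09 in Cy3, so the orientations did not overlap. Its mean was 0.14 ± 0.07 (limma's 95% interval 0.02 to 0.26, adjusted p = 0.072). With the 6 arrays as separate replicates and a dye term its adjusted p was 0.0241. Dnajb3 had the lowest mean of the class, -0.16 ± 0.03 over 2 sets (limma's adjusted p = 0.105), and was below 0 on all 5 arrays that measured it. It passed as lower with zeros kept (adjusted p = 0.0316) and with the arrays as separate replicates and a dye term (adjusted p = 0.0414). The other class B genes, Dnajb5, Dnajb7, Dnajb8, Dnajb11 and Dnajb12, had means from -0.09 to 0.14.

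Of the 4 class A J-proteins, which carry a zinc finger region, 1 rose and 1 fell, against 17.3% and 16.8% of all genes. Dnaja1, the main farnesylated partner of Hsc70, had values of 0.08, 0.04 and 0.12 in Cy5 and 0.31, 0.36 and 0.31 in Cy3. All 6 were above 0, with a gap between the orientations, and the mean was 0.20 ± 0.01 (limma's adjusted p = 0.0144, 0.306 with treated RNA in Cy5 alone and 0.12 without set 3). Dnaja3, the class A J-protein of mitochondria, had values of -0.31, -0.28 and -0.35 in Cy5 and -0.21, -0.13 and -0.25 in Cy3, all below 0. Its mean was -0.25 ± 0.05, or 1.19-fold lower (limma's adjusted p = 0.0077, 0.0795 without set 3 and 0.0808 with treated RNA in Cy3 alone). The 2 probes of Dnaja2 pointed in opposite directions. Probe 18427 averaged 0.30 ± 0.07 and probe 9814 averaged -0.19 ± 0.08, each with the same sign on all 6 arrays (adjusted p = 0.00678 and 0.037 over all probes in limma). The gene mean, 0.05 ± 0.03, averages these opposite values. Dnaja4 averaged 0.03 ± 0.12.

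Class C holds J-proteins of varied layout, and 2 of 15 rose while 3 fell, against 17.3% and 16.8% of all genes. In either direction 33.3% of class C was called, against 34.2% of all genes. Dnajc3, an ER protein that also inhibits the kinase PERK, had gene values of 0.31, 0.07 and 0.16 in Cy5 and 0.48, 0.34 and 0.41 in Cy3. All 6 were above 0, and the mean was 0.30 ± 0.09 (limma's adjusted p = 0.0079, and 0.0524 without set 3). With treated RNA in Cy5 alone it was 0.18 (adjusted p = 0.104). Dnajc5, the cysteine string protein of secretory vesicles, had values of 0.22, 0.27 and 0.22 in Cy5 and 0.40, 0.32 and 0.31 in Cy3. Its mean was 0.29 ± 0.02, or 1.22-fold (limma's adjusted p = 0.00378). Besides Dnajb4 it was the only called member whose call held in all 13 alternatives computed for it, single probes aside. Dnajc28 averaged -0.26 ± 0.03 (adjusted p = 0.00592), Dnajc19, a motor component of protein import into mitochondria, -0.22 ± 0.10 (adjusted p = 0.024) and Dnajc4 -0.17 ± 0.05 (adjusted p = 0.031). Each of these 3 was below 0 on all 6 arrays, and without set 3 their adjusted p values in limma were 0.065, 0.143 and 0.118. With treated RNA in Cy3 alone Dnajc19 was at -0.094 and Dnajc4 at -0.077 (adjusted p = 0.317 and 0.356). Dnajc28 did not pass in either orientation alone (adjusted p = 0.116 in Cy5 and 0.0646 in Cy3). The call of Dnajc4 also did not hold without set 1 (adjusted p = 0.0706) or without set 2 (adjusted p = 0.0757). The other 10 class C genes had means from -0.15 for Dnajc5b to 0.06 for Dnajc14.

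The J-proteins were also listed by compartment, with 4 genes in each list, too few to set a share against the 17.3% higher and 16.8% lower of all genes. Of the 4 listed mitochondrial J-proteins, 2 fell (Dnaja3 and Dnajc19) and 0 rose, with a median of -0.13. Neither Dnaja3 nor Dnajc19 passed without set 3 or with treated RNA in Cy3 alone. Dnajc4 and Dnajc28, which also fell, were in neither list. Dnajc15, which resembles Dnajc19, averaged -0.01 ± 0.09 and Dnajc30 -0.03 ± 0.03. Of the 4 listed ER J-proteins, 1 rose (Dnajc3) and 0 fell, with a median of 0.09, and 0 passed without set 3. The list left out Dnajb12 and Dnajc14, J-proteins of the ER membrane, which averaged -0.09 ± 0.09 and 0.06 ± 0.02 (the latter over 2 sets), the former with 5 of 6 arrays below 0. Dnajb11, which binds unfolded proteins in the ER lumen with BiP, averaged 0.14 ± 0.03 and was above 0 on all 6 arrays (limma's adjusted p = 0.0526). It passed with a dye term over separate arrays (adjusted p = 0.0166), with the probe of smallest spread for each gene (0.0479) and with only genes measured in 3 sets (0.0447). Dnajc10, a disulphide reductase of the ER, averaged 0.00 ± 0.06 and Dnajc1 0.04 ± 0.06. The median of all genes tested was -0.01.

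The CCT subunits were nearly level between treated and untreated RNA. Cct3 rose by 0.34 ± 0.03 over 2 sets, with 0.43 and 0.42 in Cy5 and 0.29 and 0.22 in Cy3 (limma's adjusted p = 0.0106). Both its set 1 values were exactly 0, so it was not tested without set 2 or set 3, and with zeros kept the mean was 0.23 (adjusted p = 0.0951). Its adjusted p was 0.114 with treated RNA in Cy3 alone. The other 7 subunits had means from 0.00 for Cct5 to 0.08 for Cct2, and limma's adjusted p for them ran upward from 0.272. The 95% interval of Cct5 was -0.11 to 0.11. Cct4 was below 0 in Cy5 and above 0 in Cy3 on every array, and Cct7 the reverse. Cct6b, the subunit found mainly in testis, had 0.93 and -0.84 in set 1 and a mean of 0.07 ± 0.08. That pair was mirrored as for Hspb1 but with the opposite sign. As deposited, its set 1 mean was 0.89, with the higher signal in Cy5, against -2.14 for Hspb1. Tcp1, the first subunit of the ring, which the symbol rule did not cover, averaged -0.05 ± 0.01 (adjusted p = 0.471).

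The medians of the 3 groups differed little. The HSP median was 0.023, the J-protein median 0.0019 and the CCT median 0.068. Without set 2 the J-protein and CCT medians were 0.039 and 0.046, and without set 1 the HSP median was -0.0074. The HSP minus J-protein difference was 0.02, with values of 0.06, -0.08 and 0.02 in the 3 sets. The HSP minus CCT difference was -0.05, with 0.04, -0.12 and -0.06. The J-protein minus CCT difference was -0.07, with -0.03, -0.04 and -0.08, below 0 in every set but above 0 on 2 of 6 single arrays. Each of the first 2 differences was smaller than its SD over sets (0.08 for both) and changed sign when a set was left out, the first to -0.019 without set 1 and the second to 0.012 without set 2. No test was made on these medians or on the sizes of change. The median size of the log2 ratio was 0.10 for J-proteins, 0.07 for HSP genes and 0.07 for CCT genes, against 0.12 for all genes. Of genes measured on all 6 arrays, 11 of 25 J-proteins, 2 of 19 HSP genes and 0 of 6 CCT genes kept one sign throughout, against 35.2% of all genes. The J-proteins were 7 above and 4 below 0 on every array, and the HSP genes 2 above, against 17.8% of all genes above and 17.4% below.

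**Figure D3:**
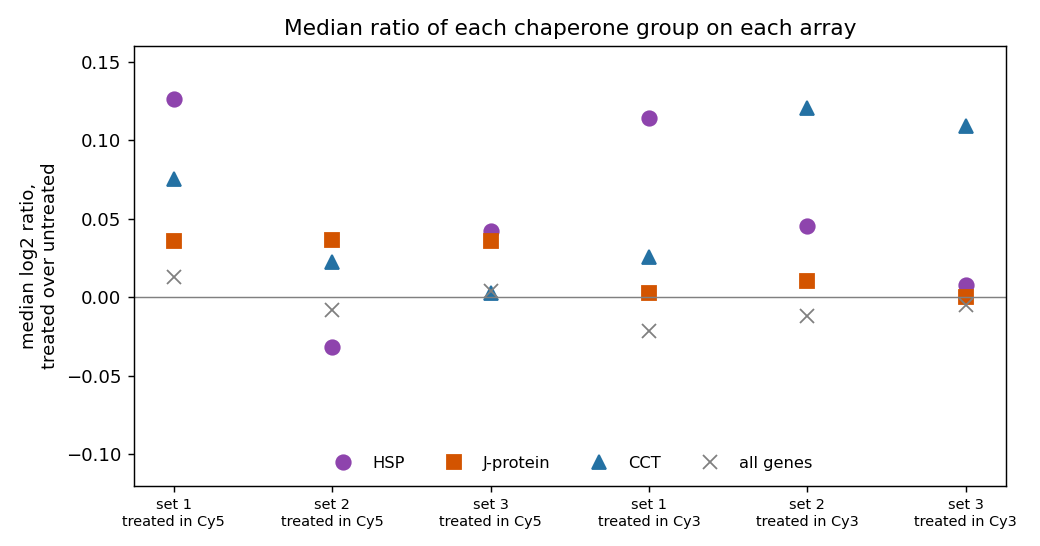
Median log2 ratio of treated over untreated RNA (y axis) for HSP, J-protein and CCT genes and for all genes tested, on each of the 6 arrays (x axis). The HSP median runs from -0.03 to 0.13 and the order of the groups changes from array to array.

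The genes best known as HSF1 targets were listed across the groups, with cochaperones outside the symbol rule added. Of 16 tested, 5 rose (31.3%, against 17.3% of all genes) and 0 fell (against 16.8%), with a median of 0.12. The share called in either direction was thus 31.3%, against 34.2% of all genes. The 5 that rose were Chordc1, Hspa8, Bag3, Hsph1 and Dnaja1, at 0.20 to 0.36. Without set 3 Hsph1 and Dnaja1 did not pass, which left 3 of 16. That was 18.8% called in either direction, against 21.0% of all genes. Without set 1 Hspa1a was called lower beside the 5, or 37.5%, against 34.1% of all genes. With treated RNA in Cy5 alone Hspa8 and Dnaja1 did not pass, and with treated RNA in Cy3 alone Bag3 did not (adjusted p = 0.0890). Chordc1, a cochaperone of Hsp90, had the largest mean, 0.36 ± 0.05, or 1.29-fold (limma's adjusted p = 0.00206). Bag3, an exchange factor that routes clients to autophagy, averaged 0.28 ± 0.03 (adjusted p = 0.00446). Hspa1a, Hspa1b, Hspb1, Hspd1, Hspe1 and Dnajb1, which respond strongly to heat in many cells, were among the 11 that did not pass.

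Stretches before the start of 6 of these and related genes are shown because each holds a match to a pair of heat shock element units. They include genes that rose (Hsph1, Dnaja1 and Dnajb6) and genes that did not pass (Hspa1b, Hspb1 and Hspe1). The longer run of units described below occurs only in Dnajb6 and Hspe1 among these 6. Printed are the 150 bases before a start of each gene in RefSeq's annotation of GRCm38.p6, with matches to GAANNTTC or TTCNNGAA in capitals. Where a gene had several starts, the first with a match was taken, and the other starts of Dnaja1 had no match.
Hsph1, chr5:149636337-149636486, - strand: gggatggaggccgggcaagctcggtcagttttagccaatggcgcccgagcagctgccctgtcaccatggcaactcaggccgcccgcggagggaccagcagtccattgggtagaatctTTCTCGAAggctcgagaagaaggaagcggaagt
Dnaja1, chr4:40722318-40722467, + strand: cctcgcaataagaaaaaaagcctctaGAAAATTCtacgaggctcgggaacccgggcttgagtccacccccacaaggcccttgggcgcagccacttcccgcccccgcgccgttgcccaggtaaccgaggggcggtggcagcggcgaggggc
Dnajb6, chr5:29735748-29735897, + strand: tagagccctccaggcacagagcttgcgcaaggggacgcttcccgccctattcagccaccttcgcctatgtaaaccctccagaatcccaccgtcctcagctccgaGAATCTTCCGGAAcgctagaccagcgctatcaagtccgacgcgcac
Hspa1b, chr17:34959239-34959388, - strand: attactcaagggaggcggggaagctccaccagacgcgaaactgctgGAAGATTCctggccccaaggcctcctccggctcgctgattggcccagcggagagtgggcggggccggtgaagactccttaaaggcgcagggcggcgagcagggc
Hspb1, chr5:135887769-135887918, + strand: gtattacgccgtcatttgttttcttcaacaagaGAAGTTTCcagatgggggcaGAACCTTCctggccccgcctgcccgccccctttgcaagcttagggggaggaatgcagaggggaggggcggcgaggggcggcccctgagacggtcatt
Hspe1, chr1:55087998-55088147, + strand: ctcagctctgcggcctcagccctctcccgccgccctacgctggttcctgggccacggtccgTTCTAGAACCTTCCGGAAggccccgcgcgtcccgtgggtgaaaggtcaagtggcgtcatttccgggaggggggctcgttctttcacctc

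Dnajc3 is shown as well, with its match to the ER stress element, CCAAT followed at a distance by CCACG, in capitals.
Dnajc3, chr14:118937782-118937931, + strand: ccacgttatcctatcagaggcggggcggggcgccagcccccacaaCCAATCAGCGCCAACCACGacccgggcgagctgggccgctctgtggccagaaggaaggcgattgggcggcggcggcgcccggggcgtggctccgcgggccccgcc

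The search covered the 250 bases before the start on both strands. Of 58 HSP, J-protein and CCT genes, 47 had a window in the table, and Hspa8, Hspa9 and Dnajc5 were among those without. The pair was found in 25.4% of the members' 63 windows and in 12.8% of all 32851 windows. Windows are not independent, because nearby starts of a gene overlap, and the matches of Dnajb6 and of Hsph1 were counted more than once. The windows of Hspa1a and Hspa1b are near-identical. Counted by gene, 14 of the 47 members with a window had the pair, and the share by gene over all genes was not computed. The pair extended by a further unit at the same spacing, a run of 3 units that contains the pair, occurred in Hspe1, Hspd1 and Dnajb6, and in 0.466% of all windows. Hspd1 and Hspe1 are divergent neighbours whose windows share 285 bases, so their match is the same stretch read on opposite strands. Of the 14 tested genes with the pair, 4 rose (Dnaja1, Dnajb4, Dnajb6 and Hsph1) and 0 fell, with a median of 0.02. Of the 33 without the pair, 3 rose and 5 fell, with a median of 0.04. Over all genes tested 17.3% rose and 16.8% fell, and the share among all genes with the pair was not computed. Without set 3 only Dnajb4 and Dnajb6 among these calls still passed, with Cct3 and Hspa14 not tested. Dnajb6 did not pass with its probe of smallest spread. The ER element matched 0.113% of all windows and, among the members, Dnajc3. A match is a description of the letters, not a site shown to be bound.

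Among 41 tested heat shock factors and cochaperones outside the symbol rule, 10 rose (24.4%) and 4 fell (9.76%), with a median of 0.03. The share in either direction was 34.1%, against 34.2% of all genes. Without set 3, 3 rose and 1 fell (9.76%, against 21.0% of all genes). Without set 1, 4 rose and 3 fell (17.1%, against 34.1% of all genes). With treated RNA in Cy5 alone 2 rose and 4 fell (14.6%, against 32.9% of all genes). In Cy3 alone 9 rose and 2 fell (26.8%, against 23.6% of all genes). After Chordc1 and Bag3 the largest rise was that of Hyou1, the Hsp110 relative of the ER, at 0.26 ± 0.03 (limma's adjusted p = 0.00571, and 0.0746 with treated RNA in Cy5 alone). Ppid, St13, Bag1, Sugt1, Tomm70a, Cdc37 and Pdcl3 rose by 0.15 to 0.21. Cdc37, which brings kinases to Hsp90, passed narrowly at 0.15 ± 0.05 (adjusted p = 0.0466, and 0.12 without set 1, 0.0862 without set 2 and 0.15 without set 3). With zeros kept its mean was -0.11, because probe 13744, which has 3 zeros and is otherwise left out, was then averaged in. That probe gave -1.96 and -2.18 in Cy5 and 1.88 in Cy3. Stub1, the ubiquitin ligase CHIP that removes clients of Hsp70 and Hsp90, had values of -0.14, -0.30 and -0.28 in Cy5 and -0.42, -0.37 and -0.32 in Cy3. Its mean was -0.31 ± 0.03, or 1.24-fold lower (limma's adjusted p = 0.00322). Clpx, the unfoldase of a mitochondrial protease, averaged -0.23 ± 0.01 (adjusted p = 0.00859, 0.0743 without set 3 and 0.171 with treated RNA in Cy3 alone), and Bag4 and Fkbp5 fell by 0.17 and 0.16. Bag4 had an adjusted p of 0.117 without set 1, 0.159 without set 3 and 0.377 with treated RNA in Cy3 alone. Fkbp5 had values of -0.03, -0.004 and 0.04 in Cy5 and -0.26, -0.43 and -0.27 in Cy3. Its call did not hold with treated RNA in Cy5 alone, with zeros kept or with scaling between arrays. Nor did it hold when any of the sets was left out. Stip1, which links Hsp70 to Hsp90, averaged 0.12 ± 0.07 (adjusted p = 0.108). Hsf2 and Hsf4 averaged 0.03 ± 0.09 and -0.04 ± 0.12, and Hsf1 was not analysed here.

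The 3 ER chaperones left out by the rule moved further in part. Dnajb9, an ER J-protein, had values of 1.13, 1.13 and 0.93 in Cy5 and 1.49, 1.59 and 1.30 in Cy3, and rose 2.40-fold. Hspa5, the ER Hsp70 BiP, rose 1.56-fold, at 0.64 ± 0.10. Hsp90b1, the ER Hsp90, averaged 0.08 ± 0.04 (limma's adjusted p = 0.248), with arrays from -0.31 to 0.46. Dnajb9 was above Dnajb4, the highest of the 57 tested members, on every array.

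**Figure D4:**
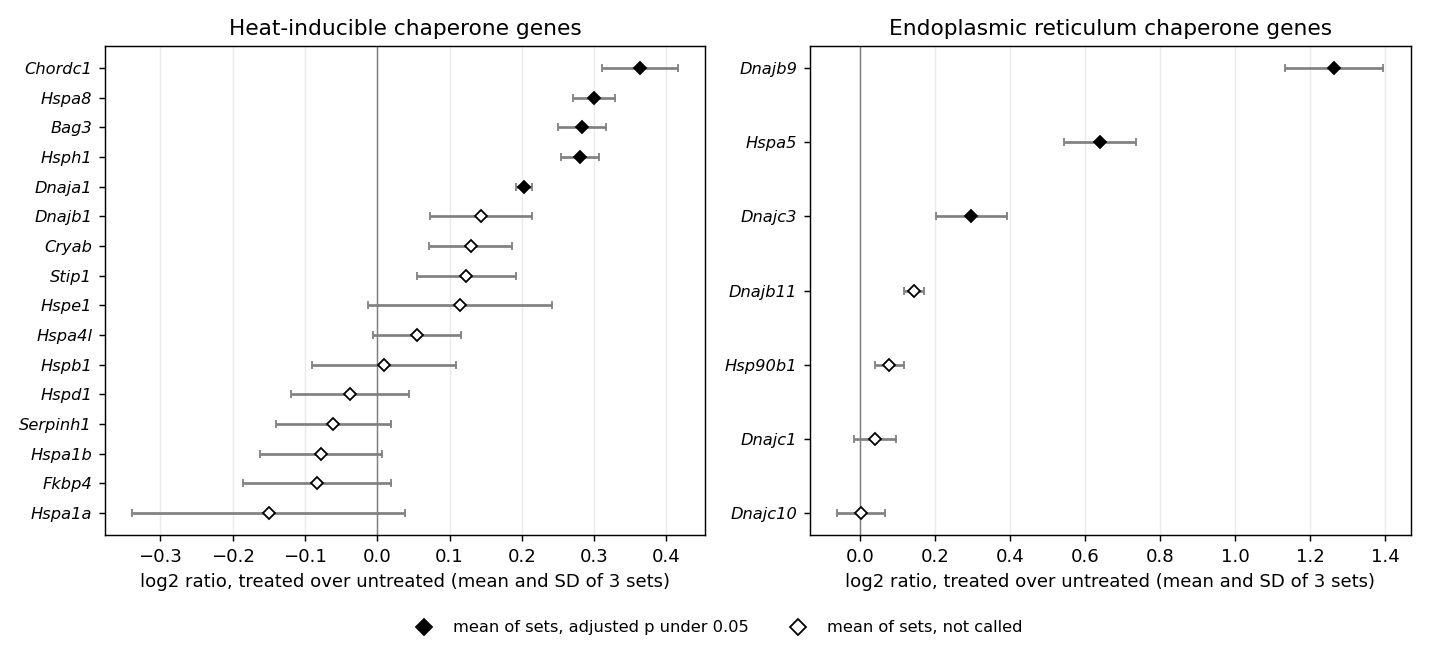
Mean log2 ratio of treated over untreated RNA with the SD over 3 sets (x axis; scales differ) for genes inducible by heat shock factor 1 (left) and for ER chaperones and J-proteins (right), with gene names on the y axis. Filled diamonds had an adjusted p under 0.05. The left panel ends at Chordc1 with 0.36, while Dnajb9 on the right reaches 1.26.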

How the data were processed

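The table deposited by the authors held log2 ratios, 1 for each feature on each array, with the base inferred from the largest value (6.64, log2 of 100). Not given in the sources used here were image analysis, background correction and normalization. Features were named from the platform annotation: 13738 had 1 symbol, 52 several and 2491 none.

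The sign was flipped on arrays carrying treated RNA in Cy3. Values of exactly 0 (8.16% to 13.9% of features per array) were read as not measured. A set counted for a probe only where both arrays had a value, and the probes of a gene with the most measured sets were averaged. Set means of 10088 genes with at least 2 sets went into lmFit and eBayes (limma 3.58.1, R 4.3.3) against 0, Benjamini-Hochberg adjusted, threshold 0.05. SDs are over sets. The fit was tested on simulated data, with 50 of 10088 genes changed at each size. It called 0% of log2 changes of 0.25, 92% of 0.5 and 98% of 1, and 6.49% of its calls were false. In the real data 34.2% of genes were called, so these shares do not carry over directly.

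Named genes were the members that passed, the extremes of each group and a fixed list of major chaperones. Of the cochaperones outside the symbol rule they were the 3 largest rises and falls that passed and 5 fixed genes. Hspb3, Hspb9, Dnaja2 and the remaining members were named after their values were seen. Members and lists were chosen with earlier results of these data known. As deposited, arrays of opposite orientation had r from -0.80 to -0.43 over probes. Symbols of 13694 features matched RefSeq (GRCm38.p6), and 0 changed. No channel intensities were used, so the number of arrays limits the precision.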

Additional observations from a re-analysis of the deposited data

Results flagged for a closer look

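Among the 50 members measured on all 6 arrays, some had an array that lay far from the rest. For Hspa1a the set 2 array with treated RNA in Cy3, at -0.65, stood apart from the other 5. For Dnajc12 it was the array of the same set and orientation, at 0.55, around a mean of 0.00. For Dnajb11 the set 1 array with treated RNA in Cy3 was the low one, at 0.027. Chance alone marks about 1 in 20 such groups of arrays.

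Among the 50 members measured on all 6 arrays, 6 switched sign between orientations. Each had one sign on every array with treated RNA in Cy5 and the other on every array with treated RNA in Cy3. Dnajc5b did the same on the 5 arrays that measured it. The difference itself was not tested, and the share of all genes with this pattern was not computed. For the 6 measured throughout, the Cy5 and Cy3 means were 0.34 and -0.40 for Hspb2, 0.20 and -0.06 for Cct7, and 0.15 and -0.10 for Hspbp1. They were -0.11 and 0.19 for Cct4, -0.073 and 0.13 for Hspa9, and -0.24 and 0.04 for Dnajc2. None of these 6 passed the test on set means.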

How the results depend on the processing

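No member called in the reported fit changed sign under any alternative tried. Cdc37, a cochaperone outside the symbol rule, was at -0.11 with zeros kept, a setting that averages in a further probe. With zeros kept, 0 HSP genes fell and 0 CCT genes rose, with 1572 of all 10525 genes lower and 1646 higher. With treated RNA in Cy5 alone 1 of 20 HSP and 2 of 8 CCT genes rose, with 1640 of all 10222 genes higher. With treated RNA in Cy3 alone 4 of 20 HSP and 1 of 29 J-protein genes fell, with 1144 of all 10259 genes lower. In that orientation 0 CCT genes rose, with 1274 of all genes higher. In either direction the shares there were 30% for HSP genes and 24.1% for J-proteins, against 23.6% of all genes. With only genes measured in 3 sets, 0 HSP genes fell and 0 CCT genes rose, with 1726 of all 9217 genes lower and 1751 higher. Counted by probe, 2 HSP features fell, with 2242 of all 14343 features tested lower. With the probe of smallest spread for each gene 2 HSP genes fell, with 1764 of all 10088 genes lower. Leaving out a set in turn gave 1086 to 1678 genes higher and 925 to 1717 lower. Then 1 to 3 HSP genes rose and 0 to 3 fell, 3 to 6 J-proteins rose and 0 to 3 fell, and 0 to 1 CCT genes rose. The HSP median ran from -0.0074 (without set 1) to 0.059, the HSP minus J-protein difference from -0.019 (without set 1) to 0.026, and the HSP minus CCT difference from -0.081 to 0.012 (without set 2), so all 3 included both signs. The J-protein median ran from 0.0073 to 0.039, the CCT median from 0.045 to 0.074, and the J-protein minus CCT difference from -0.062 to -0.0074. The lowest counts of all genes and of J-proteins were those without set 3, and the cause was not tested. Hspa14 and Cct3, measured in sets 2 and 3 alone, had no test without either.

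Same-numbered arrays of opposite orientation deviated together as deposited (r of 0.26, 0.21 and 0.10 over probes), but the array of set 3 with treated RNA in Cy3 correlated better with set 2 (0.11). With the set number as a replicate block the counts were 1751 genes higher and 1698 lower, against 1750 and 1699, and the member counts did not change. Centring and scaling moved the median of all genes from -0.01 by less than 0.01.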
